A study of Mus musculus with 33 samples.

Results

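The genes described here encode the proteasome: every gene of the expression table whose symbol begins with Psm, continues with a letter from a to g and then carries a number. This rule found 50 of 21565 genes. They comprise 19 core genes (Psma and Psmb), 21 regulatory genes (Psmc and Psmd), 5 activator genes (Psme), 1 inhibitor gene (Psmf1) and 4 genes for chaperones that assemble the core (Psmg). Psmc3ip, whose product works in meiotic recombination, matched by its symbol alone and is no proteasome subunit, and Psmd5, Psmd9 and Psmd10 encode chaperones of the regulatory particle rather than subunits.

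RNA was sequenced from the frontal cortex of 33 adult male mice on a C57BL/6J background, to ask how sleep loss changes transcripts and whether the transcription factor MEF2C is needed for the change. Wild-type (WT) mice were left to sleep freely (control sleep, CS, n = 6), were kept awake for 6 hr on a slowly moving treadmill (sleep deprivation, SD, n = 7), or had 2 hr of recovery sleep after a deprivation (RS, n = 7). Mef2c f/f mice carry loxP sites around an exon of both Mef2c alleles and no Cre (CS n = 4, SD n = 3). Mef2c-cKO mice carry the same floxed alleles together with Cre under the Camk2a promoter, which is active in excitatory neurons of the forebrain (CS n = 3, SD n = 3). By the study's account some Mef2c-cKO mice also carried a recombined allele outside the brain, so that loss of the gene in those mice was not limited to these neurons. No Cre control without floxed alleles was among the groups.

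The proteasome degrades proteins that carry ubiquitin chains. Its core is a barrel of alpha and beta rings whose beta subunits cut the chain, and its regulatory particle has a base of ATPases that unfold and feed in the substrate and a lid that takes the ubiquitin off. In neurons it turns over synaptic proteins. When proteasome capacity falls short, the transcription factor NRF1 (gene Nfe2l1) raises the genes of core and regulatory particle together, acting through antioxidant response elements in their promoters.

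The depth was 18935045 to 249046089 reads per library. Values are given as rescaled CPM: the deposited CPM (reads of a gene per 1000000 reads), divided by a size factor for each library taken as the median ratio over 11570 genes. Mef2c, the targeted gene, stood at 1080.1 to 1207 rescaled CPM in the Mef2c f/f CS libraries and at 957 to 1727 in the Mef2c-cKO CS libraries, and since only the floxed exon is lost, the gene's level is no check of the deletion. Some properties of the libraries moved with the groups. In each library, a gene's log2 level minus its mean over all 33 libraries was set against its transcript GC content, across 11552 genes. The Spearman rho was -0.741 to -0.104 in WT CS, 0.0264 to 0.768 in WT SD and -0.268 to 0.676 in WT RS. It spanned -0.439 to 0.41 in the Mef2c f/f and Mef2c-cKO libraries. This rho describes a library relative to the others, not the correlation of level itself with GC content. Markers of meningeal fibroblasts summed to 8.82 to 38.7 rescaled CPM in WT CS and to 44.5 to 72.2 in WT SD, and 3 of the 5 tested were higher in SD. Blood markers summed to 25.6 to 108.6 in WT CS and to 89.1 to 263 in WT SD, and 4 of 4 were higher. Of the 5 excitatory neuron markers, which define the cells that the Cre line targets, 1 was lower in WT SD. Of the 5 inhibitory neuron and the 5 astrocyte markers 2 each were higher. The oligodendrocyte, microglia and macrophage, endothelial, and pericyte and smooth muscle lists each had 1 marker higher and 1 lower. Between the same groups 24.6% of all genes tested were higher and 20.5% lower. Choroid plexus markers summed to 10.8 to 184.7 in WT CS and to 6.63 to 11.8 in WT SD, and 1 of the 2 tested was lower. The part that GC content and these other cells had in the differences below was not tested beyond the fits named beside each result. In bulk tissue, fewer cells of a type and less RNA per cell cannot be told apart.

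Because the antioxidant response element is the route by which proteasome genes are known to be raised together, its letters, TGACNNNGC, were searched on both strands of the promoter windows that RefSeq supplies (build GRCm38.p6, 300 bases a window, 42 of the 50 genes with 45 windows). The motif stood in 6 of the 45 windows (13.3%) and in 12.4% of all 32851 windows. It was in 12.5% of core and 15.8% of regulatory windows. Of the 6 genes that hold it, 5 were called between WT CS and WT SD, where 45.1% of all genes tested were called. Of these Psmb5, Psmb6 and Psmd9 were higher and Psmc6 and Psme4 lower, and with GC content corrected, as described below, Psmb5 and Psme4 were still called and the other 3 were not. Their promoter stretches are printed 5′ to 3′ along the strand of the gene, with the motif in capitals.
Psmb5 (chr14:54618008-54618068, minus strand, motif beginning 47 bases before the start site): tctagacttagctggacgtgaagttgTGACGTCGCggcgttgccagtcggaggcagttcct
Psmb6 (chr11:70525322-70525382, plus strand, 9 bases before): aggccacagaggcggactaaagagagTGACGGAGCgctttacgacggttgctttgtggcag
Psmd9 (chr5:123228133-123228193, plus strand, 31 bases before): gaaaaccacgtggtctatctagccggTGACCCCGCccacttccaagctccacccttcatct
Psmc6 (chr14:45329574-45329631, plus strand, 227 bases before, motif on the opposite strand): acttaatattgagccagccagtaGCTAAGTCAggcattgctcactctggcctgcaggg
Psme4 (chr11:30771742-30771802, plus strand, 7 bases before, motif on the opposite strand): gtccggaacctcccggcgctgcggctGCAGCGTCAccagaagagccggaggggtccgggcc

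A match is a description of these letters and not of binding. Among the other motifs searched on both strands, the GC box GGGCGG was in 53.3% of the proteasome windows and 35.7% of all windows, and the CCAAT box in 33.3% and 37.4%. The median GC content of the proteasome windows was 57.3%, against 52.7% for all windows. The cAMP response element TGACGTCA and a MEF2 site were in 0 of the 45 windows, and in 1.79% and 0.557% of all windows.

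In WT control sleep, structural subunits of both particles were expressed at like levels per kilobase of exon, taken over the union of a gene's annotated exons. This union can be longer than any 1 transcript. It was 4595 bases for Psmb1 and 6383 for Psmd11, whose longest transcripts have 1970 and 2975. The order of genes below rests on that length. The 14 constitutive core genes tested lay between 13.1 (Psmb1) and 59.0 (Psmb2) CPM per kilobase of exon, with a median of 21.9. The 17 base and lid genes lay between 6.85 (Psmd11) and 63.7 (Psmd14), with a median of 21.6. Psmd14, which encodes the lid's deubiquitinase, had the highest mean level of all of them, and the ATPase genes ranged from 9.59 (Psmc2) to 56.2 (Psmc1) CPM per kilobase. Assembly factors were lower. The 3 chaperones of the regulatory particle reached 2.01 (Psmd9) to 5.96 CPM per kilobase and the 4 core chaperones 0.241 (Psmg3) to 6.65 (Psmg2). Among the activators, Psme4, the large nuclear cap of the core, stood highest at 30.4 CPM per kilobase and Psme2 lowest of the expressed ones at 4.87. Psmf1, an inhibitor that binds the core, stood at 4.19.

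**Figure D1:**
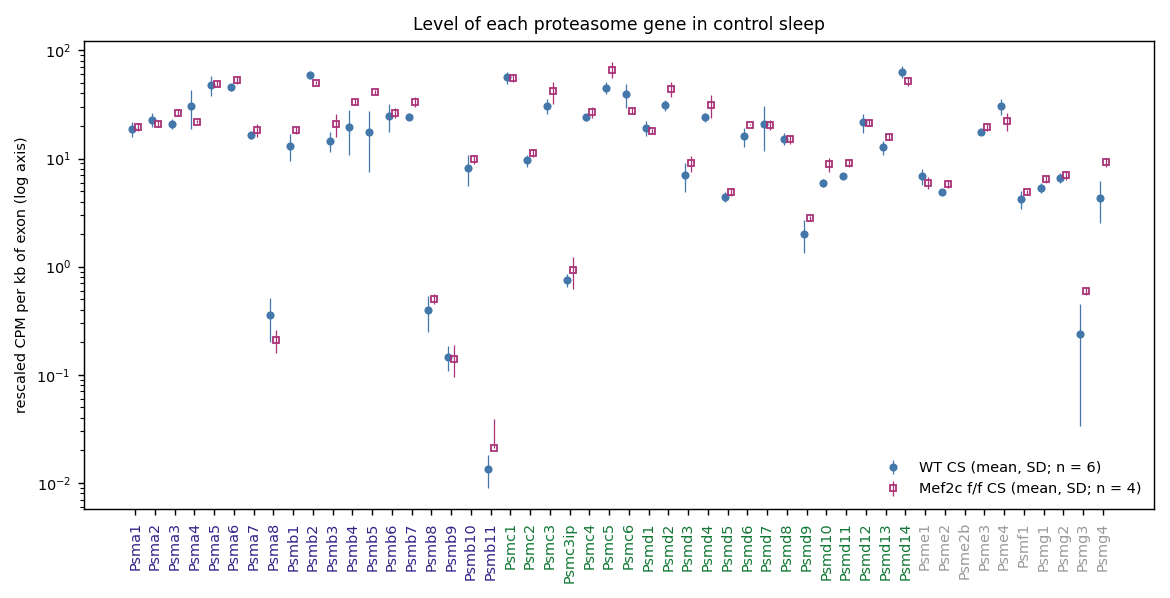
Level of each proteasome gene in WT and in Mef2c f/f control sleep (mean and SD), as rescaled CPM per kilobase of exon on a log axis. In WT, core and base or lid genes share 1 range, with medians of 21.9 and 21.6, and the immune and thymic beta genes other than Psmb10 lie below 0.4.

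The beta genes of the immunoproteasome, which replace constitutive subunits in cells exposed to interferon, were low in cortex. Psmb10 reached 8.12 CPM per kilobase in WT CS, but Psmb8 stood at 0.394, Psmb9 at 0.146 and the thymic Psmb11 at 0.0135. Psma8, the testis form of an alpha subunit, had 7 to 133 reads per library, Psmb9 7 to 159 and Psmb11 1 to 26. Psme2b had 0 reads in all 33 libraries, where a count of 0 allows up to 3 reads. These 4 genes and Psmg3, which had 2 to 273 reads, did not reach 1 CPM in every library of either WT group compared, which left 45 proteasome genes tested in the WT comparisons. Psmg3 passed in the Mef2c f/f and Mef2c-cKO comparisons, which tested 46.

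From CS to SD in WT mice, Psme4, Psmc6 and Psmd14 were lower, while a larger number of proteasome genes, led by Psmb5, Psmb4, Psmg4 and Psmd3, were higher. A gene was called different when its p-value from limma, adjusted by Benjamini-Hochberg over all genes tested, did not exceed 0.05 and its log2 fold change was 0.3 or more in either direction. In WT SD 17 of the 45 tested proteasome genes were higher and 3 lower, where 45.1% of all 12913 genes tested were called (24.6% higher and 20.5% lower). The median log2 fold change was 0.19 over the proteasome genes and 0.04 over all genes. Of the 45, 26 had an unadjusted p under 0.05, as did 7677 of all 12913 genes. That is also the background of the core and regulatory counts of unadjusted p below. A called share of 20 in 45 is close to that of all genes. In the deposited CPM, not rescaled, 30 of the 45 were higher and 1 lower, where 53.5% of all genes were called and the median of all genes moved from 0.04 to 0.30. Ranges that did not overlap between CS and SD were found for 15.1% of all genes and for 3 proteasome genes, Psmd2 and Psmg1 (higher) and Psme4 (lower).

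**Figure D2:**
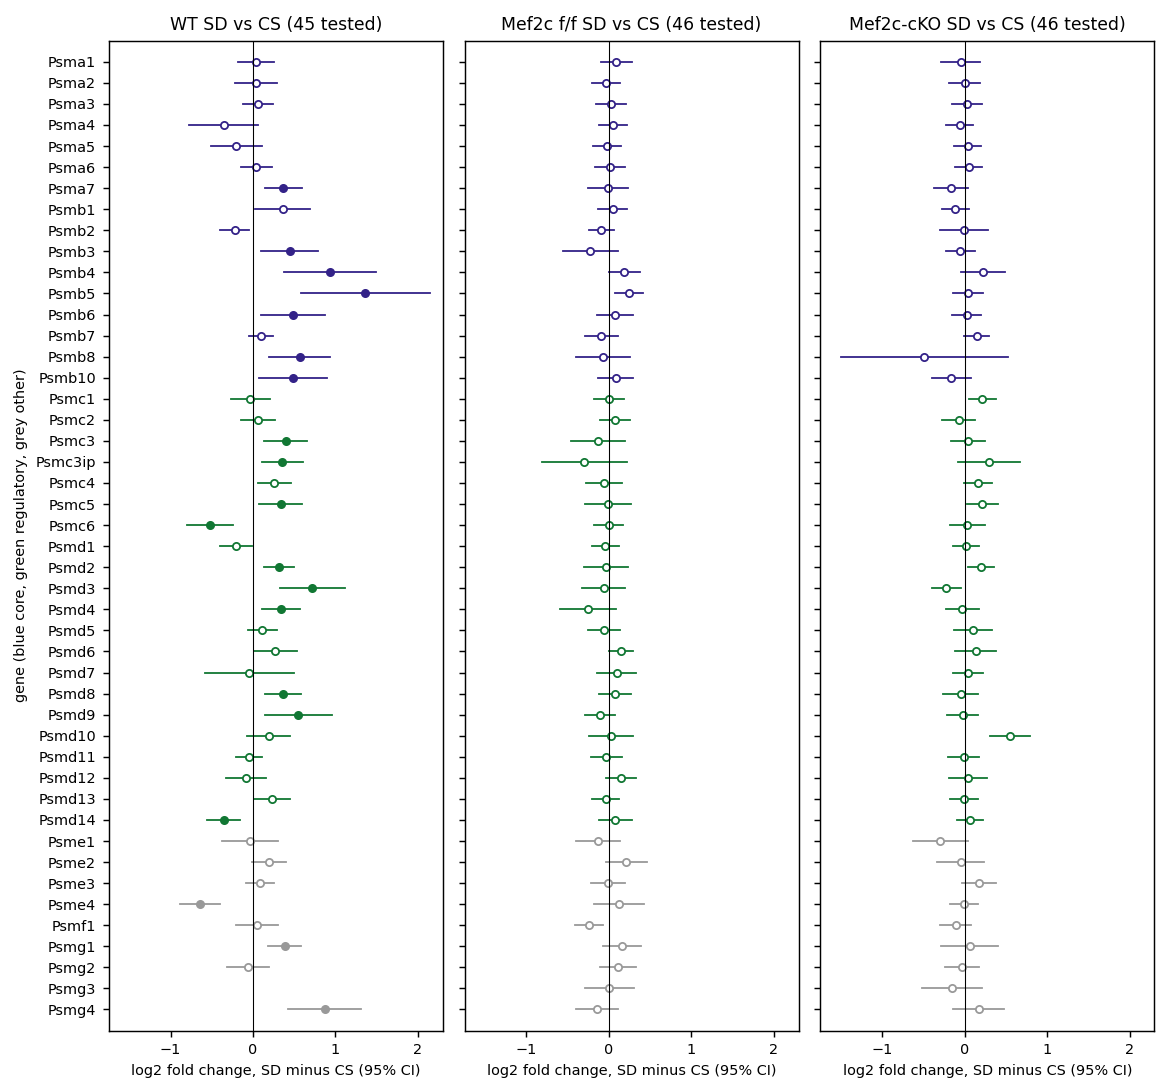
Log2 fold change from CS to SD (x axis) in WT, Mef2c f/f and Mef2c-cKO mice, a panel each, for each tested proteasome gene (rows), with 95% confidence intervals. Blue marks core, green regulatory and grey other genes, and filled points were called. In the WT panel Psmb5 at 1.36 lies farthest to the right and Psme4 at -0.64 farthest to the left.

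Called genes differed in GC content. The transcripts of the 17 genes called higher had 49.7% to 57.4% GC (median 52.5%), those of the 3 called lower 37.0% to 43.9% (median 43.2%), and the 25 others 39.4% to 56.2% (median 47.2%). Across the 45 genes, log2 fold change and GC content had a Spearman rho of 0.674, and across all genes tested of 0.721, as a description over genes that share these libraries. With GC content and transcript length fitted out of each library, 7 proteasome genes were higher and 3 lower, where 20.4% of all genes were called. Of the 20 genes called without that correction, 4 remained, namely Psmb4, Psmb5, Psmd3 and Psme4. Another fit left out the 3 WT CS libraries whose rho with GC content, as defined above, was below -0.5 (replicates 1, 2 and 3). This alternative was chosen after seeing the data. It left 2 proteasome genes called, Psme4 and Psmd14, both lower, where 17.8% of all genes were called. Psme4 was the 1 gene called in all 3 of these fits.

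**Figure D3:**
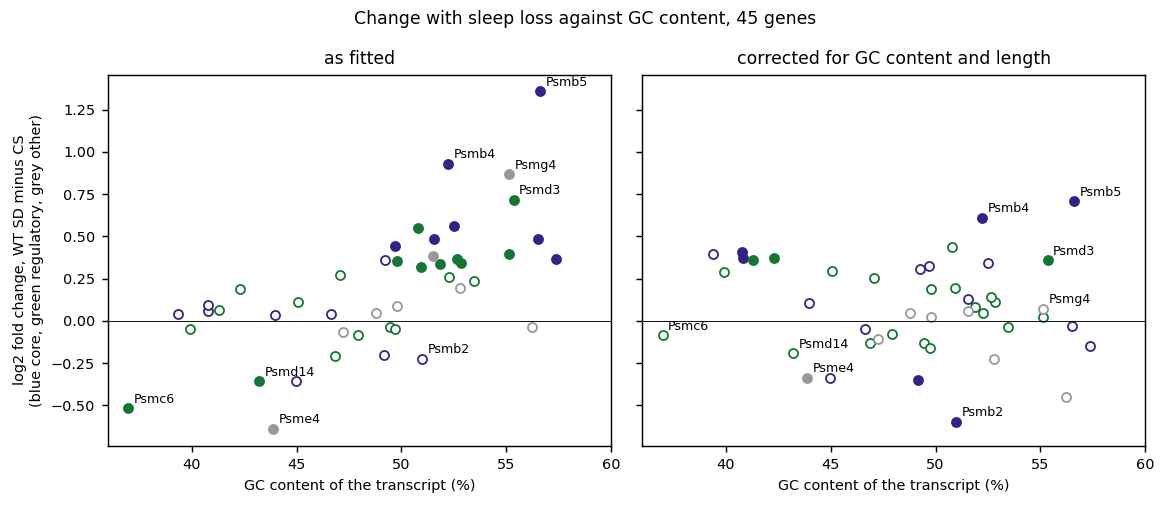
Log2 fold change from CS to SD in WT mice (y axis) against the GC content of the longest transcript in percent (x axis) for the 45 tested proteasome genes. The left panel is as fitted and the right panel is corrected for GC content and length. Points are coloured by particle and filled where called in that fit. As fitted, the genes called higher sit at 49.7% or above and the genes called lower at 43.9% or below. After the correction this split does not hold, as Psmb2, at 51.0%, was then called lower.

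Psme4 (chr11:30771726-30880361, plus strand) encodes the activator that caps the core without ATP. Its level in WT CS ran from 216 to 332 rescaled CPM with a median of 249, and in WT SD from 135 to 202 with a median of 166. Every SD library was below every CS library. The mean went from 255 ± 40.8 (SD, n = 6) to 163 ± 23.7 (SD, n = 7), a log2 fold change of -0.64 with a 95% confidence interval of -0.88 to -0.40 (limma, adjusted p = 0.00134). It was -0.34 (-0.50 to -0.17) with GC content and length corrected, at an adjusted p of 0.00809 by limma. None of the other 3 activators tested was called. Psme1, which with Psme2 forms the interferon-inducible cap, had 11.9, 14.6 and 19.0 rescaled CPM as lowest, median and highest in CS and 10.1, 14.7 and 22.4 in SD, so that the SD range enclosed the CS range. Its log2 fold change was -0.03 (-0.37 to 0.30), and those of Psme2 and Psme3, the nuclear homolog, were 0.20 (-0.01 to 0.40) and 0.09 (-0.08 to 0.25). Psmf1 had 18, 28.4 and 31.8 in CS and 24.6, 27.6 and 30.4 in SD, with a log2 fold change of 0.05 (-0.20 to 0.30). Among the 4 activators tested 1 was therefore lower and none higher by limma.

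Of the core genes, 7 of the 16 tested were higher and none lower, where 24.6% of all genes were higher and 20.5% lower, shares that are also the background of the smaller classes below, with a median log2 fold change of 0.23, and 9 had an unadjusted p under 0.05. In the alpha ring, which gates the barrel, 1 of the 7 genes tested was called, Psma7. It had 47.0, 49.0 and 57.4 rescaled CPM as lowest, median and highest in CS and 53.2, 65.3 and 84.9 in SD, overlapping at the edge, and its log2 fold change was 0.37 ± 0.10 (SE). With GC content corrected it was -0.15, the opposite sign. Psma1 had 46.1, 54.8 and 69.4 in CS and 51.0, 54.6 and 64.5 in SD, the smallest difference of the ring, with a log2 fold change of 0.03 (-0.18 to 0.25). The other 5 alpha genes had log2 fold changes of -0.36 (Psma4) to 0.06 (Psma3), and the median over the ring was 0.04.

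In the constitutive beta ring, 4 of 7 genes were higher (median log2 fold change 0.44). Psmb5 (chr14:54614119-54618022, minus strand), whose product holds the chymotrypsin-like site, had the lowest value of any library in WT CS at 3.97 rescaled CPM, a median of 16.3 and a highest value of 25.9. In WT SD it ran from 22.4 to 57.1 with a median of 36.2. All but the lowest SD library were above the highest CS library. The mean went from 15.8 ± 9.11 (SD, n = 6) to 35.9 ± 11.2 (SD, n = 7), a log2 fold change of 1.36 ± 0.37 (SE; limma, adjusted p = 0.00977). With GC content corrected it was 0.71 (0.19 to 1.23, adjusted p = 0.0421), and without WT CS replicates 1, 2 and 3 it was 0.62 (0.12 to 1.12, adjusted p = 0.0764, limma), no longer called. Psmb4, a noncatalytic beta gene, ran from 17.9 to 63.7 in CS (median 38.2) and from 51.1 to 109.1 in SD (median 62.5), with overlap, and its log2 fold change was 0.93 ± 0.26 (SE). That value was 0.61 with GC content corrected and 0.44 without those 3 libraries, the latter not called. Psmb6, whose product holds the caspase-like site, and Psmb3 had log2 fold changes of 0.48 and 0.44, and with 1 library left out in turn their calls were lost in 9 and 7 of 13 fits. Psmb7, whose product holds the trypsin-like site, had 73.3, 83.7 and 91.3 in CS and 84.7, 87.8 and 98.3 in SD, with overlapping ranges and a log2 fold change of 0.10 (-0.05 to 0.24). Of the 3 catalytic beta genes, the 2 called were Psmb5 and Psmb6. Psmb2 was lower by 0.22 on the log2 scale, under the fold threshold (adjusted p = 0.0344, limma), and with GC content corrected by 0.60 (adjusted p = 0.00169, limma), then called.

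Of the regulatory genes, 8 of the 21 tested were higher and 2 lower, against the same shares of all genes, with a median log2 fold change of 0.23, and 14 had an unadjusted p under 0.05. How alike core and regulatory genes were depended on the genes and libraries taken. Without the immune subunits the core median was 0.08, while that of the regulatory genes without chaperones and Psmc3ip was 0.23. The medians over all core and all regulatory genes were 0.22 and 0.11 with GC content corrected, and without WT CS replicates 1, 2 and 3 they were 0.08 and 0.23. The difference between these medians was not tested. Among the 6 ATPases, Psmc3 (log2 fold change 0.40) and Psmc5 (0.33) were higher and Psmc6 was lower. Psmc6 had 105.6, 132 and 200.1 rescaled CPM as lowest, median and highest in CS and 81.9, 93.2 and 112 in SD. All but the highest SD library were below the lowest CS library. Its log2 fold change was -0.52 (-0.80 to -0.24, limma, adjusted p = 0.00725), which became -0.09 with GC content corrected and -0.27 without WT CS replicates 1, 2 and 3, neither called. Psmc1 had 97.2, 105.2 and 133 in CS and 88.1, 102.5 and 136 in SD, and its log2 fold change was -0.03 (-0.27 to 0.20).

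The non-ATPase part of the base scaffolds the ring and binds ubiquitin chains, and 2 of its 3 genes were higher. Psmd4, a ubiquitin receptor, had 58.2, 69.1 and 74.4 rescaled CPM in CS and 67.1, 87.3 and 106.0 in SD, with overlap, and a log2 fold change of 0.34 (0.11 to 0.57). Psmd2 ran from 102.2 to 142 in CS (median 124) and from 144 to 174 in SD (median 155), so every SD library was above every CS library. Its log2 fold change was 0.32 (0.14 to 0.50, limma, adjusted p = 0.00926) and 0.20 with GC content corrected, where it was not called. Psmd1, the other scaffold gene, went the other way without being called, from 121, 136 and 179 in CS to 112, 119 and 135 in SD, a log2 fold change of -0.21 (-0.40 to -0.01).

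In the lid, 2 of 8 genes were higher and 1 lower. Psmd14 (chr2:61711694-61800376, plus strand) had 153, 181 and 203 rescaled CPM as lowest, median and highest in CS and 124, 143 and 159 in SD, and all but the highest SD library were below the lowest CS library. The mean went from 179.6 ± 21.7 (SD, n = 6) to 139.8 ± 14.4 (SD, n = 7), a log2 fold change of -0.36 (-0.56 to -0.16, limma, adjusted p = 0.00852). It was -0.19 with GC content corrected (adjusted p = 0.17, limma), not called, and -0.36 without WT CS replicates 1, 2 and 3 (adjusted p = 0.0392, limma). Psmd3, a structural lid gene, ran from 18.6 to 45.5 in CS (median 36.9) and from 45.2 to 67.5 in SD (median 58.9), the lowest SD library lying just under the highest CS library. Its log2 fold change was 0.72 ± 0.18 (SE), 0.36 with GC content corrected and 0.36 without those 3 libraries, the last not called. Psmd7, the catalytically inactive partner of Psmd14 in the lid, had 23.5, 45 and 75.3 in CS and 29.8, 43.7 and 62.7 in SD, overlapping widely, with a log2 fold change of -0.05 (-0.59 to 0.49).

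The assembly chaperones of both particles included 3 genes called higher. Psmg4 had 1.34, 2.39 and 3.98 rescaled CPM in CS and 3.25, 4.47 and 6.56 in SD, with overlap, and its log2 fold change was 0.87 ± 0.21 (SE; limma, adjusted p = 0.00601). Psmg1 had 6.05, 7.39 and 8.18 in CS and 8.45, 9.37 and 11.9 in SD, without overlap, at a log2 fold change of 0.38. Both fell to 0.07 and 0.06 with GC content corrected. Psmg2, the partner of Psmg1, had 9.83, 11.9 and 12.9 in CS and 9.01, 10.6 and 15.4 in SD, and a log2 fold change of -0.07 (-0.32 to 0.19). Of the regulatory particle's chaperones, Psmd9 had 7.30, 14.6 and 20.2 in CS and 16.8, 21.3 and 23.6 in SD, overlapping, and a log2 fold change of 0.55. Psmd5 had 27.6, 32.5 and 36.2 in CS and 31.0, 33.9 and 39.6 in SD, and a log2 fold change of 0.11 (-0.07 to 0.29). A long noncoding RNA on the opposite strand shares 25.5% of the exon bases of Psmd9, and Mlx shares 21.2% of those of Psmc3ip. Psmc3ip had 1.02, 1.46 and 1.52 in CS and 1.35, 1.88 and 2.48 in SD, and a log2 fold change of 0.35.

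**Figure D4:**
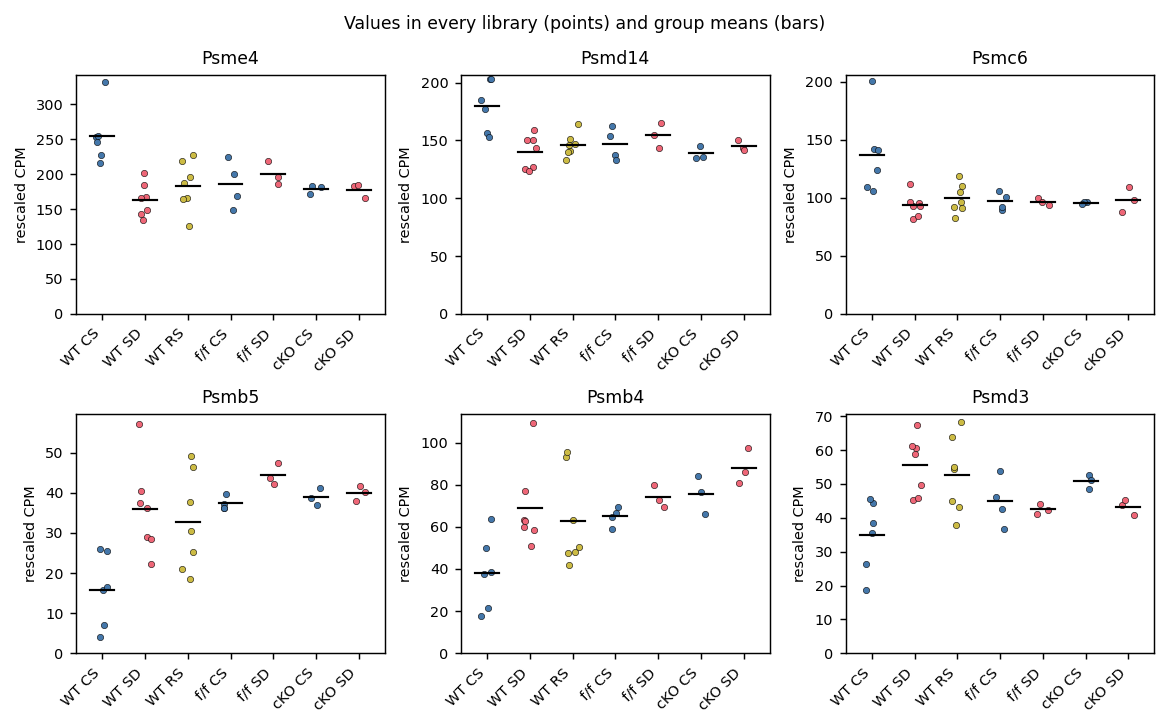
Rescaled CPM of single proteasome genes in every library (points) by group, with the mean of each group as a bar. Psme4 is lower in each WT SD library than in each WT CS library, and Psmb5 spans 3.97 to 25.9 in WT CS but 36.1 to 39.8 in the Mef2c f/f CS libraries.

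After recovery sleep Psmb5, Psmd3 and Psmg4 were higher and Psme4 and Psmc6 lower than in control sleep, and no proteasome gene was called between RS and SD. From CS to RS, 3 of 45 genes were higher and 2 lower, where 17.5% of 12752 genes were called (9.28% higher and 8.22% lower). Of the 45, 19 had an unadjusted p under 0.05, as did 5913 of the 12752. The higher genes were Psmb5 (log2 fold change 1.2, adjusted p = 0.0475), Psmg4 (0.77, adjusted p = 0.0492) and Psmd3 (0.62, adjusted p = 0.0465), all by limma. The lower genes were Psme4 (-0.48, adjusted p = 0.0387) and Psmc6 (-0.44, adjusted p = 0.044), also by limma. Psmb5 had 18.5, 30.6 and 49.3 rescaled CPM as lowest, median and highest in RS, and Psme4 126, 188 and 228, a range that reached into that of CS. Psmd14 had 133, 146 and 164 in RS, and its difference of -0.29 passed the adjusted p (0.0392 by limma) but not the fold threshold. The median log2 fold change from CS to RS was 0.19 over core, 0.22 over regulatory and 0.02 over all genes, and over the core genes without the immune subunits it was 0.07. Ranges without overlap were found for 0 of the 45 genes and for 3.72% of all genes. With GC content corrected 1 proteasome gene was called, where 5.42% of all genes were called. It was a core gene and lower, and none of the 5 genes called without the correction stayed called. Without WT CS replicates 1, 2 and 3 no gene of the whole table was called. This comparison and that of CS with SD share their CS libraries.

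Between SD and RS, which share no libraries, limma called 0 of the 45 genes, where 0.0232% of all genes were called. Of the 45, 0 had an unadjusted p under 0.05, against 683 of all 12921 genes tested. The intervals were not narrow. The log2 difference of RS from SD was -0.16 (-0.65 to 0.32) for Psmb5 and 0.16 (-0.11 to 0.42) for Psme4, and the medians over core and regulatory genes were -0.01 and -0.02.

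In Mef2c f/f mice no proteasome gene was called from CS to SD, where 0.0403% of 12410 genes were called. An unadjusted p under 0.05 was reached by 4 of 46 genes and by 2111 of the 12410. Psmb5 stood at 39.8, 37.3, 36.1 and 36.4 rescaled CPM in the 4 CS libraries and at 43.8, 47.5 and 42.1 in the 3 SD libraries. All SD libraries were above all CS libraries, at a log2 fold change of 0.25 (0.07 to 0.42, limma, adjusted p = 0.178). The other 3 were Psmb4 (0.19), Psmd6 (0.15) and Psmf1 (-0.24). Ranges without overlap were found for 5 of the 46 genes and for 17.4% of all genes. Psme4 stood at 200.1, 169, 225 and 149 in CS and at 196, 186 and 219 in SD, the SD values lying inside the CS range, with a log2 fold change of 0.12 (-0.18 to 0.42). Psmd14 stood at 162, 138, 154 and 133 in CS and at 154, 144 and 165 in SD, again overlapping. The medians over core and regulatory genes were 0.02 and -0.03.

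In Mef2c-cKO mice no proteasome gene was called from CS to SD either, where 0.0234% of 12810 genes were called by limma. The 5 genes with an unadjusted p under 0.05 were all regulatory, and over all genes 391 of the 12810 had one. Psmd10, a chaperone of the regulatory particle also known as gankyrin, stood at 11.4, 10.3 and 9.70 rescaled CPM in CS and at 16.2, 16 and 14.4 in SD. Its ranges were separate, and the log2 fold change was 0.55 (0.30 to 0.79), but the adjusted p was 0.836 by limma. Psmc1 (0.21), Psmc5 (0.21) and Psmd2 (0.19) were the other values above 0 and Psmd3 (-0.23) the value below, each with an adjusted p of 0.998 by limma. Ranges did not overlap for 10 of the 46 genes and for 9.05% of all genes. Psme4 stood at 172, 183 and 182 in CS and at 184, 184 and 166 in SD, a log2 fold change of -0.01 (-0.18 to 0.16).

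Between the genotypes in control sleep, none of the 46 proteasome genes was called, where 7.67% of 12681 genes were called by limma. Of the 46, 7 had an unadjusted p under 0.05, as did 3557 of the 12681. Nearest to the threshold were Psma4 (log2 difference of Mef2c-cKO from Mef2c f/f 0.27, adjusted p = 0.0539), Psma1 (0.32, adjusted p = 0.0611) and the core chaperone Psmg3 (0.53, adjusted p = 0.069), all from limma. The median difference was 0.11 over core, 0.01 over regulatory and 0.03 over all genes.

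After sleep deprivation Psmg4 and Psmc3ip were higher in Mef2c-cKO than in Mef2c f/f mice, 2 of 46 genes, where 15.1% of 12774 genes were called (9.1% higher). Psmg4 stood at 4.82, 4.45 and 4.49 rescaled CPM in the Mef2c f/f SD libraries and at 6.10, 7.83 and 7.54 in the Mef2c-cKO SD libraries. All of the latter were above all of the former. The log2 difference was 0.58 (0.31 to 0.86, limma, adjusted p = 0.0152). In control sleep Psmg4 stood at 4.90, 5.50, 4.56 and 5.58 in Mef2c f/f and at 6.61, 6.32 and 5.93 in Mef2c-cKO, also separate. Psmc3ip stood at 0.909, 1.66 and 1.2 in Mef2c f/f SD and at 2.45, 2.3 and 2.08 in Mef2c-cKO SD, without overlap, a log2 difference of 0.68 (0.27 to 1.09, limma, adjusted p = 0.0351). After the GC correction the differences were 0.36 for Psmg4 (adjusted p = 0.0944, limma) and 0.53 for Psmc3ip (adjusted p = 0.069, limma), so that neither was called. Between the same groups 4 of 7 microglia and macrophage markers (summed level 157 to 167 rescaled CPM in Mef2c f/f SD and 198 to 218 in Mef2c-cKO SD) were higher. So were 3 of 5 inhibitory neuron markers, with 1 lower (494 to 574 and 671 to 791), and 2 of the 3 choroid plexus markers tested (4.07 to 7.36 and 6.91 to 18.5). Astrocyte markers summed to 594 to 646 and to 780 to 963, and 2 of 5 were higher. Of the 5 excitatory neuron and the 5 oligodendrocyte markers 1 each was lower. Of the 5 endothelial markers 1 was higher and 1 lower. The part of all these cells in the 2 differences was not tested. Psmb3 and Psmd2, at 0.25 each, passed the adjusted p but not the fold threshold. Without Mef2c f/f SD replicate 1 or replicate 3 none of the 46 genes was called.

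The response to sleep deprivation itself was compared between genotypes by an interaction term. Between Mef2c-cKO and Mef2c f/f, limma called 0 of 46 genes, where 0.00778% of 12860 genes were called. Over all genes 1005 of the 12860 had an unadjusted p under 0.05. Among the 46 Psmd10 alone did, with a difference of responses of 0.52 (0.17 to 0.87). Between Mef2c f/f and WT, 2 of 46 genes had a higher and 2 a lower response in Mef2c f/f, where 15.1% of 13106 genes were called (9.35% higher and 5.78% lower). The differences in log2 response, Mef2c f/f minus WT, were 0.76 for Psme4 (0.36 to 1.16, adjusted p = 0.0241), 0.43 for Psmd14 (0.13 to 0.74, adjusted p = 0.0498), -1.01 for Psmg4 (-1.65 to -0.37, adjusted p = 0.0386) and -0.59 for Psmd4 (-1.002 to -0.19, adjusted p = 0.0471), all by limma. With GC content corrected, or without WT CS replicates 1, 2 and 3, none of these was called. Psmd4 stood at 72.5, 84.9, 74.6 and 118 rescaled CPM in Mef2c f/f CS, of which the last library was the highest, and at 74.0, 74.2 and 67.9 in Mef2c f/f SD. In the WT libraries the listed genes sum to 925580 to 985958 deposited CPM and in all others to 1000000, so genotype and the preparation of the table differ together between WT and Mef2c f/f and cannot be told apart.

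Psmb5 shows where the WT control libraries differ from the Mef2c f/f and Mef2c-cKO libraries. Its WT CS values of 3.97 to 25.9 rescaled CPM lay under every Mef2c f/f and Mef2c-cKO library, which spanned 36.1 to 47.5. The WT SD range of 22.4 to 57.1 enclosed the latter. Both the WT SD range and the WT RS range of 18.5 to 49.3 overlapped that of WT CS. Psme4 showed the reverse order with overlap at the edge, with WT CS at 216 to 332 and the 13 Mef2c f/f and Mef2c-cKO libraries at 149 to 225. WT CS and Mef2c f/f CS differ in genotype and in the totals given above, so no test was made between them.

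Core and regulatory genes were also set against each other within each library, as the mean log2 level of the 15 core genes minus that of the 20 regulatory genes that reached 1 CPM in all 33 libraries. The difference averaged -0.19 ± 0.21 (SD, n = 6) in WT CS and ranged from -0.42 to 0.05, with the lowest values in the libraries of replicates 1 and 2, which also have the lowest Psmb5. In WT SD it averaged -0.07 ± 0.08 (SD, n = 7) and in WT RS -0.07 ± 0.07 (SD, n = 7), both averages lying inside the WT CS range. The core mean was 5.59 in WT CS and 5.85 in WT SD on the log2 scale, and the regulatory mean 5.77 and 5.92. The spread between WT CS libraries was in the core mean (SD 0.21) more than in the regulatory mean (SD 0.05). The Mef2c f/f values averaged -0.10 ± 0.03 (SD, n = 4) in CS and -0.07 ± 0.01 (SD, n = 3) in SD. In Mef2c-cKO they averaged 0.03 ± 0.03 (SD, n = 3) in CS and -0.05 ± 0.02 (SD, n = 3) in SD. The Mef2c-cKO CS libraries, at -0.005 to 0.050, lay above all Mef2c f/f libraries. Without the immune, thymic and chaperone genes the same means were -0.37 in WT CS, -0.24 in WT SD, -0.25 in Mef2c f/f CS and -0.13 in Mef2c-cKO CS. The lower WT CS average depended on GC content. With GC content and length corrected, the 15 core minus 20 regulatory genes averaged -0.10 ± 0.15 (SD, n = 6) in WT CS. The corrected averages were -0.085 in WT SD, -0.068 in WT RS, -0.11 in Mef2c f/f CS and -0.019 in Mef2c-cKO CS.

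**Figure D5:**
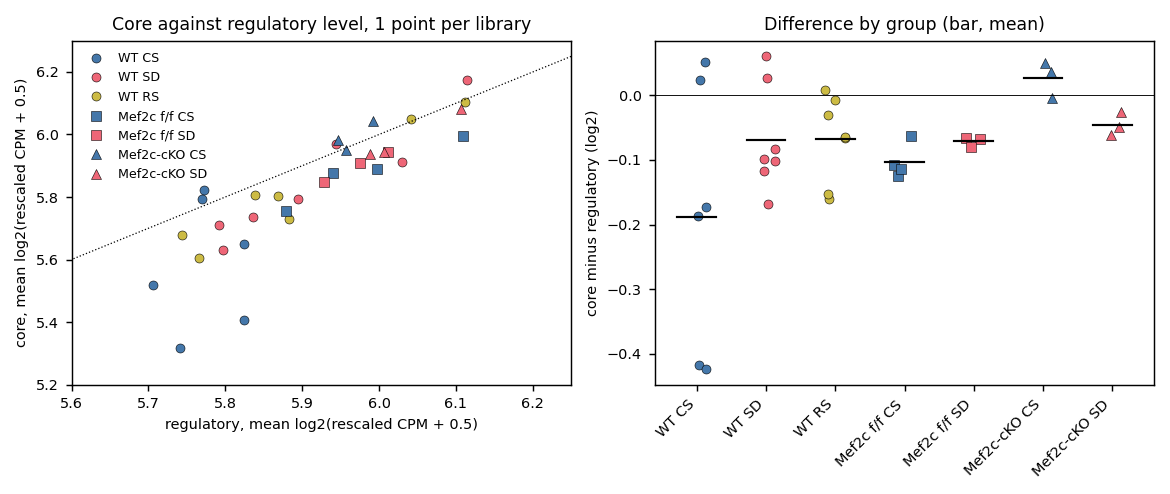
Left, mean log2 level of the core genes (y axis) against that of the regulatory genes (x axis), a point per library. Right, the core mean minus the regulatory mean in each library (points, y axis) by group, with the group mean as a bar. In the right panel WT CS spans -0.42 to 0.05, and the other 6 groups fall within that range or close to it.

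Without GC correction, the immune subunits Psmb8 and Psmb10 and the genes that load antigen peptides were higher after deprivation in WT mice. Psmb8 had 0.633, 1.34 and 2.10 rescaled CPM as lowest, median and highest in CS and 1.54, 2.16 and 2.95 in SD, overlapping, with a log2 fold change of 0.56 (limma, adjusted p = 0.0165). Psmb10 had 7.13, 13.1 and 18.9 in CS and 13.2, 19.3 and 24.0 in SD, overlapping, with a log2 fold change of 0.49 (limma, adjusted p = 0.0475). With GC content corrected these were 0.34, not called, and -0.03. The call of Psmb10 was lost in 10 of the 13 fits that left out 1 library. The peptide loading genes Tap1 (log2 fold change 0.64), Tap2 (0.72) and Tapbp (0.81) were all higher in WT SD. For them no fit with GC content corrected or without WT CS replicates 1, 2 and 3 is given here. In WT CS, Tapbp stood at 8.6, 4.83 and 8.46 rescaled CPM in those replicates and at 12.1, 15.5 and 11.9 in the others. Its WT SD range was 13.5 to 20.5. For Tap1 and Tap2 the ranges of these sets of CS libraries overlapped. Tap1 and Psmb9 overlap on opposite strands by 212 bases. Markers of microglia and macrophages summed to 153 to 222 rescaled CPM in WT CS and to 158 to 194 in WT SD.

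One Mef2c-cKO CS library, replicate 8, stood apart in the immune genes. Psmb8 stood at 1.77, 1.72 and 6.3 rescaled CPM in Mef2c-cKO CS replicates 5, 7 and 8, and the range over the Mef2c-cKO SD libraries was 1.66 to 2.03. Psmb9 reached 2.31 in replicate 8 against 0.896 and 0.911 in the others, Psme1 17.8 and Psme2 14.9. In that library the microglia and macrophage markers summed to 445 against 174 and 207 in the other 2 Mef2c-cKO CS libraries, and the astrocyte markers to 2340 against 715 and 756. The part of these cells in its immune gene levels was not tested.

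Genes that work with the proteasome were counted from a list of 33, of which 31 were tested in WT. From CS to SD 10 were higher and 3 lower, with a median log2 fold change of 0.03, where 45.1% of all genes were called, a share close to that of the list. Among 11 tested proteasome-associated factors Adrm1, a ubiquitin receptor of the base, was higher (log2 fold change 0.65), and Uchl5, the deubiquitinase that Adrm1 holds (-0.53), and Zfand5, an activator of the proteasome (-0.55), were lower. The ubiquitin and shuttle genes that were higher included the polyubiquitin gene Ubb (0.34), the fusion gene Rps27a (0.66), the shuttle factor Ubqln2 (0.36) and Vcp (0.30), the ATPase that extracts ubiquitinated proteins. Among the 4 regulators Nfe2l1, which encodes NRF1, was higher (0.41) and Ngly1, whose product removes the sugars from NRF1 to activate it, was lower (-0.48). The 3 genes of peptide loading were also higher. For the genes of this list no fit with GC content corrected is given here. From CS to SD, none is given either without the WT CS libraries left out in the proteasome fits. How far these calls depend on GC content is therefore not shown. From CS to RS 6 of the 31 were higher and 1 lower, where 17.5% of all genes were called (9.28% higher and 8.22% lower). The higher genes included Adrm1, Ubqln2, Tap1, Tap2 and Tapbp, and Ngly1 was lower. Without WT CS replicates 1, 2 and 3 no gene of the whole table was called from CS to RS.

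In Mef2c f/f and in Mef2c-cKO mice none of the 30 listed genes tested was called from CS to SD, where 0.0403% and 0.0234% of all genes were called. After deprivation 1 of the 30, Tap1, was higher (0.79) and 1, Rps27a, lower (-0.38) in Mef2c-cKO than in Mef2c f/f mice. Between these groups 15.1% of all genes were called. The Mef2c f/f response exceeded the WT response for 2 of the 31 listed genes tested, Zfand5 (0.83) and Ube3c (0.33). It fell below the WT response for 3, among them Tap1 (-0.93) and Tap2 (-0.98). Of all genes 15.1% were called in that interaction (9.35% higher and 5.78% lower).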

How the data were processed

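By the study's methods, mRNA libraries were made with a stranded kit, reads were trimmed with Trimmomatic and aligned with STAR, and uniquely aligned reads were counted per gene with HTSeq and deposited by the authors as CPM. Reads shared by near-identical gene copies are therefore not in the values, and the strand setting of the count is not given in the sources used here. All 711645 deposited CPM values were whole reads within 0.01 once multiplied by the library total. Replicates were separate mice. CPM were divided by size factors, and log2(value + 0.5) was fitted with limma 3.58.1 in R 4.3.3, on genes of at least 1 CPM in every library of a compared group, with Benjamini-Hochberg adjustment over all genes tested. Fold changes on this scale understate those of low genes. Interactions were fitted over 4 groups. Exon length and GC content came from the GENCODE annotation, matched by symbol for 19475 of 21565 genes. Scripts were tested on simulated data. Alternatives used edgeR 4.0.16 and DESeq2 1.42.0 on recovered reads, other scalings, filters and pseudocounts, a GC and length correction, a replicate block, and each library left out. Every proteasome gene could be named, values being given for the largest and smallest change of each class and for genes called in floxed or knockout comparisons. The members and lists were chosen with earlier results of these data known. Some results of the list of genes that work with the proteasome are not reported here.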

Additional observations from a re-analysis of the deposited data

Results flagged for a closer look

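A single library lay far from the rest of its group in 7 of the 184 combinations of gene and group looked at (3.8%), by Dixon's gap criterion at its 95% critical value, which chance passes in about 5% of groups. Psma6 was low in WT CS replicate 4, at 49.4 rescaled CPM against 55.9 to 60.04 in the others. Psmc3 was low in WT CS replicate 2 (57.1 against 77.9 to 92.8), and Psmc3ip in WT CS replicate 6 (1.02 against 1.31 to 1.52). Psmb2 was high in WT SD replicate 1 (74.0 against 54.6 to 61.2), and Psmg1 in WT SD replicate 2 (11.9 against 8.45 to 9.51). Psmb1 was low in Mef2c f/f CS replicate 3 (75.0 against 86.2 to 86.6), and Psmb3 high in Mef2c f/f CS replicate 4 (64.8 against 40.9 to 43.0).

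The response to sleep deprivation differed between Mef2c f/f and WT mice by the interaction test for 4 of 46 genes, where 15.1% of all genes were called. The differences of log2 responses, Mef2c f/f minus WT, were 0.76 for Psme4, 0.43 for Psmd14, -0.59 for Psmd4 and -1.01 for Psmg4. None of the 4 was called with GC content corrected or without WT CS replicates 1, 2 and 3, and genotype and the preparation of the table cannot be told apart between WT and Mef2c f/f.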

How the results depend on the processing

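The count of proteasome genes called from CS to SD in WT mice, 20, was 31 in deposited CPM, 10 with GC content and length corrected, 2 without the 3 WT CS libraries with a strong GC trend, and 13 to 22 with 1 library left out (13 without WT SD replicate 2). The median change was 0.50 over core and 0.51 over regulatory genes in deposited CPM, and 0.11 over regulatory genes with GC content corrected. With that correction Psma7 (-0.15) and Psmb10 (-0.028) changed sign. The count from CS to RS, 5, was 9 in deposited CPM, 3 after quantile normalization, 1 with GC content corrected, 0 with no filter on low values, 2 by edgeR, 8 by DESeq2, 11 with all groups in 1 fit, 0 without the 3 libraries, and 0 to 12 with 1 library left out (0 without WT CS replicate 1, 2 or 3 or WT RS replicate 3, 4, 5, 6 or 12). The regulatory median was then 0.40 in deposited CPM and 0.087 with GC content corrected. No proteasome gene was called between RS and SD under any alternative. Array quality weights gave 1 call from CS to SD in Mef2c f/f, 2 in Mef2c-cKO, where DESeq2 gave 1, and 2 for their interaction. Between the genotypes in CS, where none was called, deposited CPM, the GC correction and array weights gave 3 each, all groups in 1 fit 2 and DESeq2 1. The core and regulatory medians were 0.21 and 0.12 in deposited CPM and -0.066 and -0.12 with GC content corrected. Between the genotypes in SD, the count of 2 was 4 with no fold threshold, 5 in deposited CPM, 1 after quantile normalization, 0 at a minimum of 5 CPM, 1 with all groups in 1 fit and 0 to 3 with 1 library left out. Core and regulatory medians were 0.20 and 0.13 in deposited CPM and 0.0052 and -0.014 with GC content corrected. For the interaction of Mef2c-cKO with Mef2c f/f the regulatory median was 0.16 with GC content corrected. The interaction of Mef2c f/f with WT, 4 calls, gave 15 in deposited CPM (26.1% of all genes), 0 with GC content corrected (2.37%), 1 with no filter (5.94%), 22 with array weights (57.1%), 8 by DESeq2 (21.2%), 0 without the 3 libraries, and 0 to 8 with 1 library left out. Its core and regulatory medians were -0.51 and -0.43 in deposited CPM, and the core median was -0.078 without the 3 libraries. Core minus regulatory level without immune, thymic and chaperone genes was -0.24 in WT SD, -0.25 in WT RS, -0.25 and -0.23 in Mef2c f/f CS and SD, and -0.13 and -0.17 in Mef2c-cKO CS and SD. The GC correction was made on the full set of 15 core and 20 regulatory genes. Without it their difference was -0.071 in Mef2c f/f SD, 0.027 in Mef2c-cKO CS and -0.046 in Mef2c-cKO SD. With it the values were -0.094, -0.019 and -0.099. In WT CS the full set moved from -0.19 to -0.10. The causes of these shifts were not tested.

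With the replicate number as a block, 0 proteasome genes were called from CS to SD in WT (2.22% of all genes), 13 from CS to RS (33.6%) and 0 for the interaction of Mef2c f/f with WT (0 of all genes). The numbers were not taken to pair the mice, because the correlations of same-numbered libraries ran from -0.329 to 0.554 between WT CS and SD. Between WT CS and RS all 6 were above 0, from 0.0681 to 0.666, and above the median with other numbers. The lowest was under 0.1, and not every library correlated best with its own number. Between CS and SD the correlations were 0.0467, 0.174 and 0.265 in Mef2c f/f and 0.0689 and 0.15 in Mef2c-cKO. These too exceeded the median with other numbers. What the shared numbers stand for was not tested. Genes below 1 CPM, such as Psmb9, are limited by their depth.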
